A study of Mus musculus with 20 samples.

Results

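The 8 genes of Fc receptor signalling described here were followed by symbol in mouse kidney: the activating IgG receptors Fcgr1, Fcgr3 and Fcgr4, the inhibitory IgG receptor Fcgr2b, the adaptors Fcer1g and Tyrobp, the kinase Syk and the neonatal Fc receptor heavy chain Fcgrt. All 8 of 8 members were found among the 47069 Ensembl genes of the count table, and all 8 passed the filter on low counts among 17622 genes tested. Total RNA of whole kidneys was sequenced as paired-end reads of 100 bases from 20 male F1 mice (129SJ x C57Bl/6J) killed at 15 weeks of age. The groups were 5 untreated WT mice and 3 groups of Col4a3-/- mice, which lack a functional α3 chain of type IV collagen and model Alport syndrome. These were 6 Veh mice given PBS subcutaneously once a week, 6 Anti-miR-21 mice given Lademirsen, an oligonucleotide that inhibits miR-21, at 50 mg/kg in PBS once a week, and 3 ACEi mice given the angiotensin-converting enzyme inhibitor ramipril. Treatment began at 5 weeks of age. Ramipril is given as 11 mg/L of drinking water in the sample labels and as 4 mg/kg in the library table, and by the study's methods the ACEi mice also received PBS. No PBS-treated WT mice were among the groups, and the deletion is carried in every cell.

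Cells carrying activating Fc receptors recognise the constant part of bound IgG. The activating receptors have no signalling motif of their own and pair with the γ chain Fcer1g, whose immunoreceptor tyrosine-based activation motif (ITAM) is phosphorylated by Src family kinases and then docks Syk. Tyrobp (DAP12) is the matching ITAM adaptor of receptors such as Trem2, and Fcgr2b opposes the pathway through an inhibitory motif (ITIM) that recruits the lipid phosphatase SHIP1. In kidney the activating receptors and both adaptors are mainly genes of macrophages and related myeloid cells, whereas Fcgrt pairs with β2-microglobulin in podocytes, tubule and endothelium and salvages IgG and albumin.

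The libraries held between 28474301 and 29479629 estimated counts on genes. Col4a3 had 4350 to 5663 estimated counts in the WT mice and 1015 to 1931 in the Col4a3-/- mice, and the ranges did not overlap. Markers of proximal tubule and podocytes were present in every kidney, with all 5 of 5 genes of each list at 1 CPM or more in every group, although the extraction text of the labels names adipose tissue. Adipocyte markers, with all 5 genes summed, ranged from 0.656 to 6.91 CPM in WT, 0.677 to 120 in Veh, 1.76 to 99.7 in Anti-miR-21 and 0.394 to 3.04 in ACEi. The 8 macrophage markers, summed, stood at 158 to 176 CPM in WT, 871 to 1065 in Veh, 365 to 547 in Anti-miR-21 and 479 to 567 in ACEi. In RNA of a whole kidney, fewer cells of a type and less RNA per cell cannot be told apart.

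Fcgr2b, Fcgr4, Fcgr3 and Fcer1g lie close together on chromosome 1 (GRCm38), at chr1:170958617-170976547, chr1:171018920-171029761, chr1:171051174-171064935 and chr1:171229572-171234365. Fcgr1 is at chr3:96282909-96293969, Tyrobp at chr7:30413760-30417585, Fcgrt at chr7:45092990-45103851 and Syk at chr13:52583173-52648792. Fcgr2b and Fcgr3 are close paralogs, and this bears on their counts. A run of 129 coding bases, longer than a read, is identical in both genes, and it spans exons 3 and 4 of an annotated transcript of Fcgr2b (chr1:170966674-170968081, minus strand) and of one of Fcgr3 (chr1:171054167-171057792, minus strand). It is printed here as the sequence from which a read could be assigned to either gene.
Shared run: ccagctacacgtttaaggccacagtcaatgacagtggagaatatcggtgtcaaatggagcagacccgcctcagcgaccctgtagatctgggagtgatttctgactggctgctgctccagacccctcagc
The last 30 bases of that run and the 30 that follow it are given for each gene, and the capital marks the single base that differs.
Fcgr2b: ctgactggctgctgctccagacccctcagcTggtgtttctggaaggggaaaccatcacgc
Fcgr3: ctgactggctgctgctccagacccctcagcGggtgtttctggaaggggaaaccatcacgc
Of the windows of 100 bases in the annotated Fcgr3 transcripts, 44 of 1733 (2.54%) also occur in Fcgr2b, and these are 0.753% of the 5843 Fcgr2b windows. No other pair of members shared such a window. The estimated counts of Fcgr2b and Fcgr3 were not whole numbers in any of the 20 mice, so small differences between these genes are uncertain, most of all for Fcgr3 in WT. Fcgr2b also overlaps the antisense gene Gm38204 and Fcgrt the antisense gene Gm45669, whose reads could not be told apart from theirs without strand.

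Promoters of the members were searched for the letters GAGGAAG, the core of the site bound by the myeloid factor PU.1, and for TATAAA, on both strands. RefSeq entries of 300 bases (GRCm38.p6, 250 before to 50 after the start) were present for 7 of the 8 members, all but Tyrobp. GAGGAAG, here as CTTCCTC on the gene's strand, was found in 3 members, Fcgr1, Fcgr3 and Fcgr4, and in 13.6% of 32851 such promoters. TATAAA was found in 0 members and in 13.6% of promoters. The promoters of the 3 activating receptors are shown with the match in capitals.
Fcgr1, chr3:96293920-96294219, minus strand: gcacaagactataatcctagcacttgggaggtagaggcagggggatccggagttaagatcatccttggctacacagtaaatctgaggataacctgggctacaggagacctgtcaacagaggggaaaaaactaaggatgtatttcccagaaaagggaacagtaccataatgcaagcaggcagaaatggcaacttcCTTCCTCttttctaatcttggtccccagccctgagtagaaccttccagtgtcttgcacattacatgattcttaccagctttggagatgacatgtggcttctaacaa
Fcgr3, chr1:171059354-171059653, minus strand: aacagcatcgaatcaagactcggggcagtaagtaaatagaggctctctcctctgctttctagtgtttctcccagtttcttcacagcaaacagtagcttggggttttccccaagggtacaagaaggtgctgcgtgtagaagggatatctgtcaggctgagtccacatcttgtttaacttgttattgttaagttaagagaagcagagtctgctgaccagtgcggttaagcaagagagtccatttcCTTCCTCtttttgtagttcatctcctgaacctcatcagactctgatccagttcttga
Fcgr4, chr1:171018676-171018975, plus strand: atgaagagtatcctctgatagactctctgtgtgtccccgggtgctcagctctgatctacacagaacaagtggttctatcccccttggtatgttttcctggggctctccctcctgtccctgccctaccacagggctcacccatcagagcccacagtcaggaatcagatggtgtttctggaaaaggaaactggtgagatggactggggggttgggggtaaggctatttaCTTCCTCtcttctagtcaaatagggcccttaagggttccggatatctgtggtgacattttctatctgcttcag
The match began 56 bases before the start of Fcgr1 and 23 before that of Fcgr4. For Fcgr3 it began 7 bases before the start in the entry shown, and 16 bases before it in a second RefSeq entry that starts downstream. Because 1 treatment inhibits miR-21, the members were also searched for its seed match. The mature miR-21a-5p is shown with its seed, bases 2 to 8, in capitals.
mmu-miR-21a-5p, chr11:86584120-86584141, minus strand: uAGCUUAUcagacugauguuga
The matching letters ATAAGCT were in the annotated protein-coding transcripts of 0 of the 8 members and of 2733 of 21877 protein-coding genes (12.5%). This says that these letters are not in these transcripts and nothing about indirect effects.

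The first comparison asked how the receptors and adaptors differed between diseased and normal kidney. Compared with WT, Veh kidneys had more mRNA of 7 of the 8 members, Fcgr1, Fcgr3, Fcgr4, Fcgr2b, Fcer1g, Tyrobp and Syk, and less of Fcgrt on the TMM scale. Of all genes tested, 39.0% were higher and 34.0% lower in Veh by the same test, the quasi-likelihood test of edgeR with an adjusted p under 0.05. The values of the 6 Veh and 5 WT mice did not overlap for any of the 8 members, as for 54.9% of all genes tested. Levels are given in CPM, estimated counts relative to the size of their library, which was scaled by the trimmed mean of M values (TMM).

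Fcgr1, the high-affinity IgG receptor, rose most. Its level in the WT mice was 0.634, 0.755, 0.777, 0.935 and 0.943 CPM, and in Veh it ran from 22.2 through a median of 27.2 to 29.9 CPM. Every Veh kidney was far above every WT kidney, and the increase was 32.7-fold (log2 fold change 5.03 ± 0.21 SE, adjusted p = 4.95e-13). Fcgr3, a low-affinity activating receptor, was at 1.76, 2.09, 2.37, 2.45 and 3.32 CPM in WT and at 46.2 to 95.8 (median 60.7) in Veh. Mouse A9 was the highest Veh kidney for Fcgr3, and the increase was 26.6-fold (log2 4.73 ± 0.27, adjusted p = 8.98e-12). Fcgr4, which binds IgG2 subclasses, was at 0.587, 0.891, 0.971, 1.48 and 1.59 CPM in WT and at 9.82 to 24.2 (median 13.7) in Veh, a 13.9-fold increase (log2 3.79 ± 0.29, adjusted p = 4.52e-10).

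The inhibitory receptor differed from the activating ones in its starting level and in the size of its change. Fcgr2b was at 31.1 CPM in mouse A14 and between 50.4 and 56.6 in the other WT kidneys. In Veh it ran from 78.5 through a median of 84.7 to 116 CPM. The increase was 1.84-fold (log2 0.88 ± 0.14, adjusted p = 7.47e-06), with a 95% interval from 0.61 to 1.15 on the log2 scale that lay below the interval of each activating receptor, the lowest of which began at 3.22 for Fcgr4.

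Both ITAM adaptors rose to almost the same extent. Fcer1g was at 2.27, 2.41, 3.25, 3.69 and 3.72 CPM in WT and at 40.8 to 53.3 (median 48.5) in Veh, a 15.8-fold increase (log2 3.99 ± 0.20, adjusted p = 3e-12). Tyrobp was at 1.85, 2.58, 2.58, 2.75 and 4.35 CPM in WT and at 38.8 to 59.6 (median 47.3) in Veh, a 17.2-fold increase (log2 4.10 ± 0.21, adjusted p = 3.02e-12). Syk, the kinase that both adaptors recruit, was at 7.24 CPM in WT mouse A17 and at 1.43, 1.87, 1.90 and 2.83 in the other WT kidneys. It reached 20.9 to 30.3 CPM (median 24.3) in Veh, an 8.16-fold increase (log2 3.03 ± 0.31, adjusted p = 2.66e-08). Without mouse A17 the log2 fold change of Syk was 3.64.

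**Figure D1:**
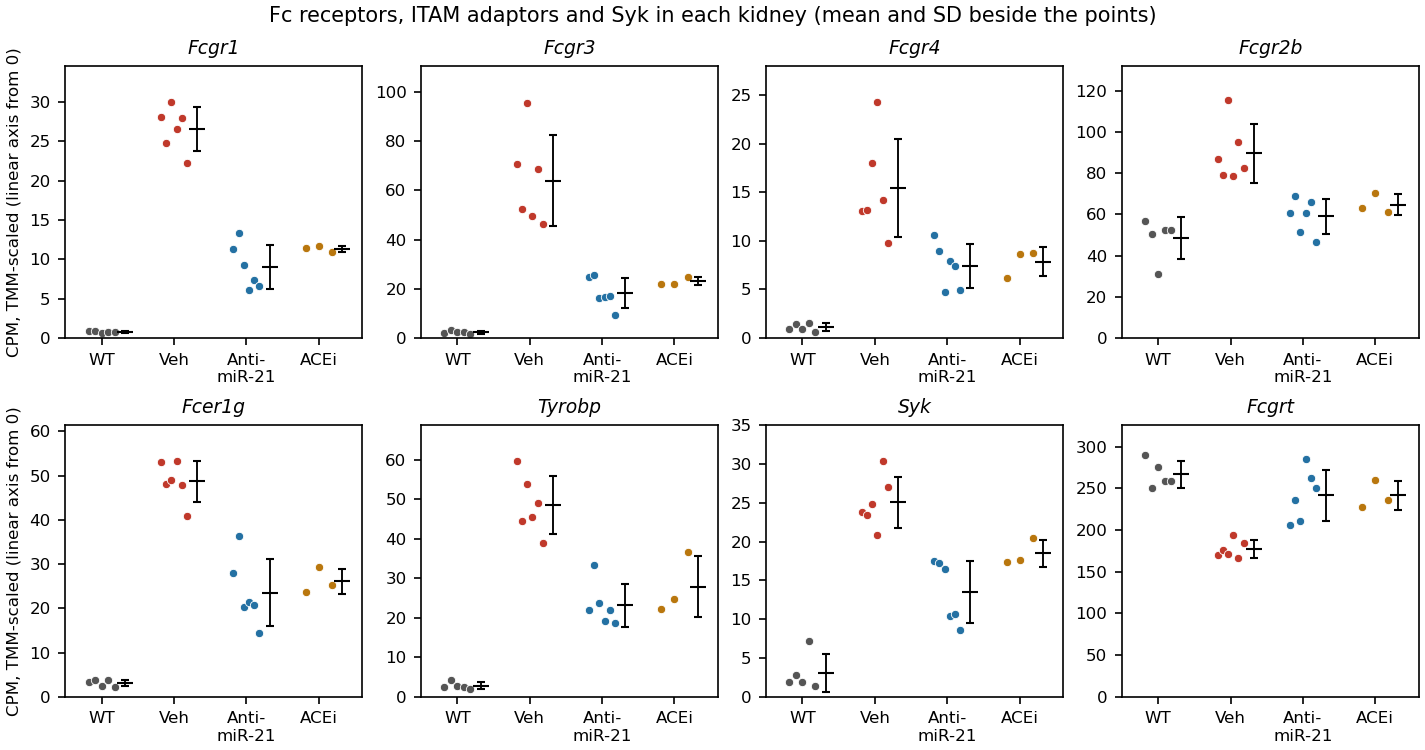
Level of each member in each kidney, in TMM-scaled CPM on a linear axis from 0, for WT (5 mice), Veh (6), Anti-miR-21 (6) and ACEi (3). Points are mice, and the bar beside them is the mean with its SD. For the 7 members other than Fcgrt the Veh kidneys lie above all WT kidneys and both treated groups lie mostly between them, while Fcgrt is lower in Veh than in WT on this scale and not in FPKM or, past the test, with library totals.

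The order of levels between genes was taken from the deposited FPKM, which are per length. In WT the order of mean FPKM was Fcgrt (128 ± 3.72), Fcgr2b (20.6 ± 4.04), Tyrobp (4.13 ± 1.44), Fcer1g (3.70 ± 0.984), Fcgr3 (1.49 ± 0.381), Fcgr4 (0.735 ± 0.303), Syk (0.500 ± 0.401) and Fcgr1 (0.269 ± 0.0614). Of the neighbours in that order, Tyrobp and Fcer1g had overlapping ranges, as did Fcgr3 and Fcgr4, Fcgr4 and Syk, and Syk and Fcgr1. In Veh the order was Fcgrt (129 ± 4.24), Tyrobp (107 ± 17.8), Fcer1g (91.1 ± 7.56), Fcgr3 (59.3 ± 18.4), Fcgr2b (57.5 ± 10.2), Fcgr4 (15.2 ± 4.32), Fcgr1 (12.8 ± 1.51) and Syk (6.14 ± 1.0). In Veh all neighbours from Fcgrt down to Fcgr2b had overlapping ranges, as did Fcgr4 and Fcgr1, whereas in WT Fcgr3 at 1.09 to 2.09 FPKM was far below Fcgr2b at 13.4 to 22.9. The same order of all 8 members was found in each group with counts per kilobase in place of FPKM.

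The ratio of activating to inhibitory receptor mRNA was computed for each kidney. In RNA of a whole kidney it does not show whether the same cells carry both kinds of receptor, which was not tested. The summed FPKM of Fcgr1, Fcgr3 and Fcgr4 was 0.125 ± 0.0394 times that of Fcgr2b in WT (0.0767 to 0.173) and 1.51 ± 0.157 times in Veh (1.21 to 1.62). The ratio was 0.744 ± 0.168 in Anti-miR-21 (0.551 to 0.995) and 0.803 ± 0.0645 in ACEi (0.745 to 0.873). With counts per kilobase of exon in place of FPKM the ratio was 0.110 to 0.254 in WT, 1.70 to 2.37 in Veh, 0.820 to 1.43 in Anti-miR-21 and 1.101 to 1.35 in ACEi. On both measures every Veh kidney was above every other kidney and every WT kidney was below every other. Whether the treated kidneys had less summed activating receptor than Fcgr2b depended on the measure, since all 9 did by FPKM and all 3 ACEi kidneys did not by counts per kilobase. The ratio combines members chosen with these results known, so it is a description and was not tested.

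**Figure D2:**
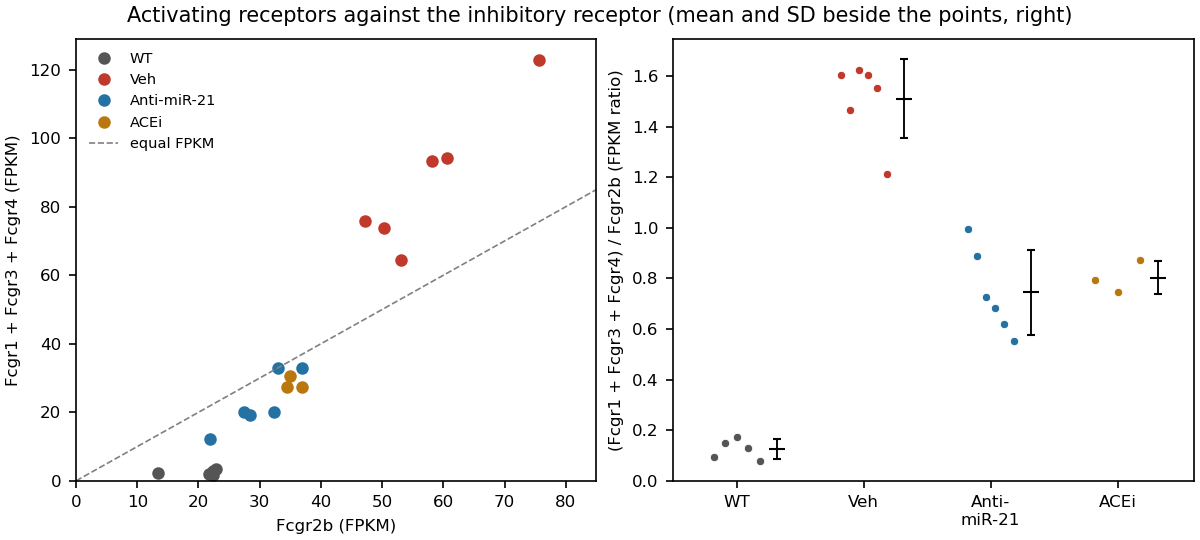
Left, summed FPKM of the activating receptors Fcgr1, Fcgr3 and Fcgr4 against the FPKM of the inhibitory receptor Fcgr2b in each of 20 kidneys, with a dashed line where both are equal. Right, the ratio in each kidney with the mean and SD of the group. By this deposited FPKM all 6 Veh kidneys lie above the line (ratio 1.21 to 1.62) and all other kidneys below it, whereas by counts per kilobase the treated kidneys lie between 0.820 and 1.43.

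The second comparison asked how the members differed between anti-miR-21-treated and vehicle-treated mice. In Anti-miR-21 kidneys all 7 members that were higher in Veh were lower than in Veh, with Fcgr3 and Fcgr1 changing most and Fcgr2b least. Of all genes tested, 30.5% were lower and 28.8% higher in Anti-miR-21 than in Veh, and the groups did not overlap for 36.4%. Fcgr3 was at 9.54 to 25.8 CPM (median 16.8), 3.49-fold lower than in Veh (log2 -1.80 ± 0.20, adjusted p = 3.95e-07). Fcgr1 was at 6.15 to 13.3 CPM (median 8.37), 2.94-fold lower (log2 -1.55 ± 0.15, adjusted p = 8.04e-08). For both genes the highest treated kidney was mouse A8 and every treated kidney was below every Veh kidney.

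Fcgr4 was at 4.76 to 10.6 CPM (median 7.63) after anti-miR-21, 2.08-fold lower (log2 -1.05 ± 0.23, adjusted p = 0.00052), and it was the 1 member of 8 whose groups overlapped. Fcer1g was at 14.4 to 36.4 CPM (median 21.1), 2.06-fold lower (log2 -1.05 ± 0.16, adjusted p = 1.3e-05). Tyrobp was at 18.5 to 33.4 CPM (median 21.9), 2.10-fold lower (log2 -1.07 ± 0.16, adjusted p = 1.3e-05). Both adaptors were lower by nearly the same factor as each other. Syk was at 8.65 to 17.5 CPM (median 13.5), 1.86-fold lower (log2 -0.89 ± 0.26, adjusted p = 0.00561). Fcgr2b was at 46.4 to 69.0 CPM (median 60.6), 1.52-fold lower (log2 -0.60 ± 0.13, adjusted p = 0.000458).

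The third comparison asked the same of ACE inhibition, and it shares the 6 Veh mice with the second. In ACEi kidneys 6 members were lower than in Veh by the test, and Syk did not pass it. Of all genes tested, 19.1% were lower and 21.0% higher in ACEi than in Veh, and the groups did not overlap for 38.6%, as for all 8 members. Fcgr3 was at 22.1, 22.2 and 24.9 CPM, 2.77-fold lower (log2 -1.47 ± 0.26, adjusted p = 0.00019). Fcgr1 was at 10.9, 11.4 and 11.6 CPM, 2.34-fold lower (log2 -1.23 ± 0.19, adjusted p = 5.06e-05). The 3 ACEi kidneys lay close together for both genes.

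Fcgr4 was at 6.17, 8.66 and 8.76 CPM in ACEi, 1.96-fold lower (log2 -0.97 ± 0.29, adjusted p = 0.0112). Fcer1g was at 23.7, 25.2 and 29.3 CPM, 1.87-fold lower (log2 -0.90 ± 0.20, adjusted p = 0.00148). Tyrobp was at 22.2, 24.8 and 36.6 CPM, 1.74-fold lower (log2 -0.80 ± 0.20, adjusted p = 0.00395). Mouse A23 was the highest ACEi kidney for Tyrobp. Fcgr2b was at 61.0, 62.8 and 70.4 CPM, 1.38-fold lower (log2 -0.47 ± 0.16, adjusted p = 0.0248). Syk was at 17.3, 17.6 and 20.4 CPM, with a log2 fold change of -0.44 ± 0.32 (adjusted p = 0.283) and a 95% interval from -1.06 to 0.18. With 3 ACEi mice, some calls rested on single kidneys: Fcgr2b lost its call without mouse A9 (adjusted p = 0.0722), A11 (0.0843), A19 (0.0529) or A23 (0.0951), and Fcgr4 without A11 (0.0702).

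**Figure D3:**
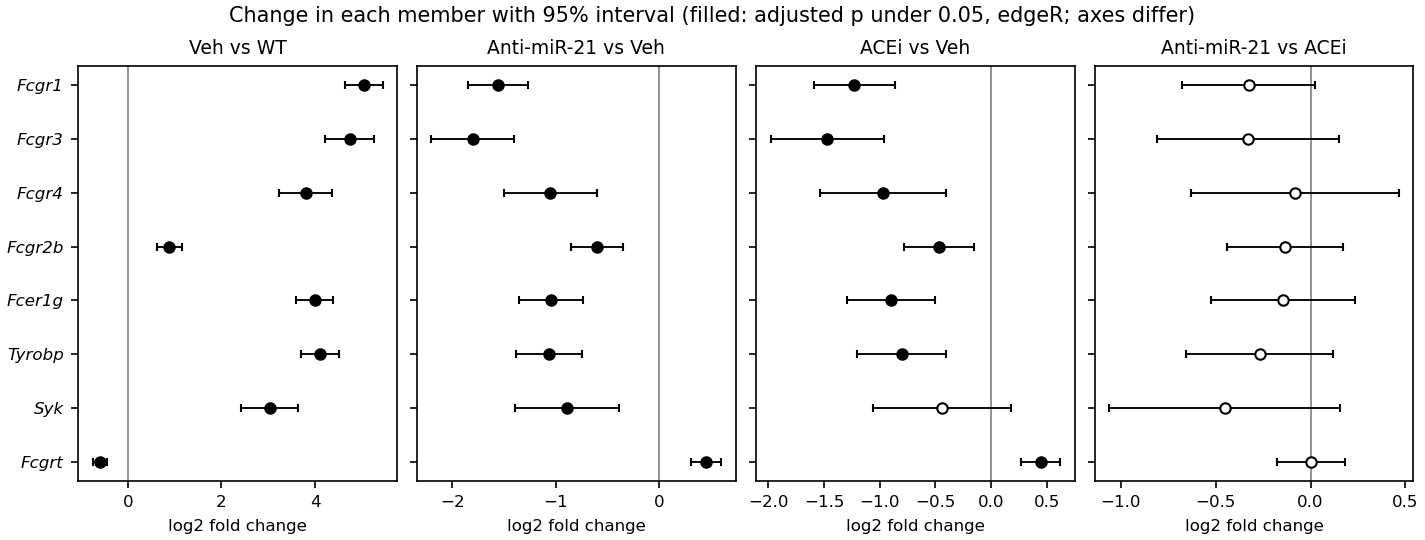
Log2 fold change of each member with its 95% interval in 4 comparisons, from the edgeR fit over 20 mice. Filled points have an adjusted p under 0.05, and the horizontal axes differ. The activating receptors changed more than Fcgr2b in the first panel, Syk is open in ACEi vs Veh, no member is filled in Anti-miR-21 vs ACEi, and Fcgrt is opposite to the others on this TMM scale. With library totals or FPKM Fcgrt differs little between Veh and WT. Its mean stays above that of Veh in both treated groups there, but in Anti-miR-21 the difference no longer passes the test.

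Compared directly, Anti-miR-21 and ACEi kidneys differed in 0 of 8 members by edgeR, 0 at an unadjusted p under 0.05 and 0 by DESeq2. Few genes did differ in this comparison, with 0.363% of those tested higher and 0.221% lower in Anti-miR-21 and groups that did not overlap for 8.99%. The lowest unadjusted p was 0.0844 for Fcgr1, whose log2 difference of -0.32 had a 95% interval from -0.68 to 0.03. The intervals ran from -0.81 to 0.15 for Fcgr3, from -0.63 to 0.47 for Fcgr4, from -0.44 to 0.17 for Fcgr2b, from -0.53 to 0.23 for Fcer1g, from -0.65 to 0.12 for Tyrobp and from -1.06 to 0.16 for Syk. For Fcgrt the interval ran from -0.18 to 0.18 on the TMM scale, around a difference near 0 whose sign changed with the scaling. All 8 members overlapped between the treatments.

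The treated kidneys were also set beside WT. In Anti-miR-21, 6 members were higher than in WT, from 4.40-fold for Syk (log2 2.14 ± 0.31, adjusted p = 1.55e-05, and log2 2.74 without WT mouse A17) to 11.1-fold for Fcgr1 (log2 3.48 ± 0.20, adjusted p = 2.5e-10). Fcgr2b did not pass (log2 0.28 ± 0.14, adjusted p = 0.102). The background was 23.9% of genes higher, 19.8% lower and 23.8% not overlapping. In ACEi, 7 members were higher than in WT, from 1.33-fold for Fcgr2b (log2 0.41 ± 0.16, adjusted p = 0.0403) to 13.96-fold for Fcgr1 (log2 3.80 ± 0.22, adjusted p = 1.51e-10). Here 25.2% of genes were higher, 22.5% lower and 46.1% not overlapping. The call of Fcgr2b against WT was lost without mouse A11, A13, A14 or A23 (adjusted p from 0.0570 to 0.132).

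On the log2 CPM scale, the Anti-miR-21 mean lay 32.4% of the way from Veh to WT for Fcgr1, 39.0% for Fcgr3, 28.0% for Fcgr4, 27.6% for Fcer1g, 26.3% for Tyrobp, 28.7% for Syk and 67.0% for Fcgr2b. The ACEi mean lay 24.7% of the way for Fcgr1, 30.4% for Fcgr3, 24.7% for Fcgr4, 22.5% for Fcer1g, 19.9% for Tyrobp, 13.3% for Syk and 50.9% for Fcgr2b. Single mice spread widely, for Fcgr2b from 40.3% (A8) to 104% (A22) in the Anti-miR-21 group. These shares are a description, and both treatments are measured from the same Veh and WT mice.

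Fcgrt, the neonatal Fc receptor heavy chain, was by far the most abundant member in WT and needs its scale named. On the TMM scale it was at 250, 259, 259, 275 and 290 CPM in WT, 166 to 194 (median 174) in Veh, 205.75 to 285 (median 243) in Anti-miR-21 and 228, 236 and 260 in ACEi. On that scale it was 1.51-fold lower in Veh than in WT (log2 -0.59 ± 0.08, adjusted p = 9.63e-07), but with library totals the difference was -0.0058 (adjusted p = 0.926) and in log2(FPKM + 1) 0.0077 (adjusted p = 0.911). It was higher than in Veh by 0.45 ± 0.08 in Anti-miR-21 (adjusted p = 3.87e-05), a call that was lost with library totals (0.10, adjusted p = 0.095) and FPKM, and by 0.45 ± 0.09 in ACEi (adjusted p = 0.000675), where it was 0.17 with library totals (adjusted p = 0.0301). Its mean FPKM was 128 ± 3.72 in WT, 129 ± 4.24 in Veh, 137 ± 11.1 in Anti-miR-21 and 145 ± 5.09 in ACEi. Against WT it did not pass on the TMM scale in Anti-miR-21 (-0.14 ± 0.08, adjusted p = 0.151) or ACEi (-0.14 ± 0.10, adjusted p = 0.227), and with library totals the ACEi value turned to 0.17 (adjusted p = 0.0405).

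**Figure D4:**
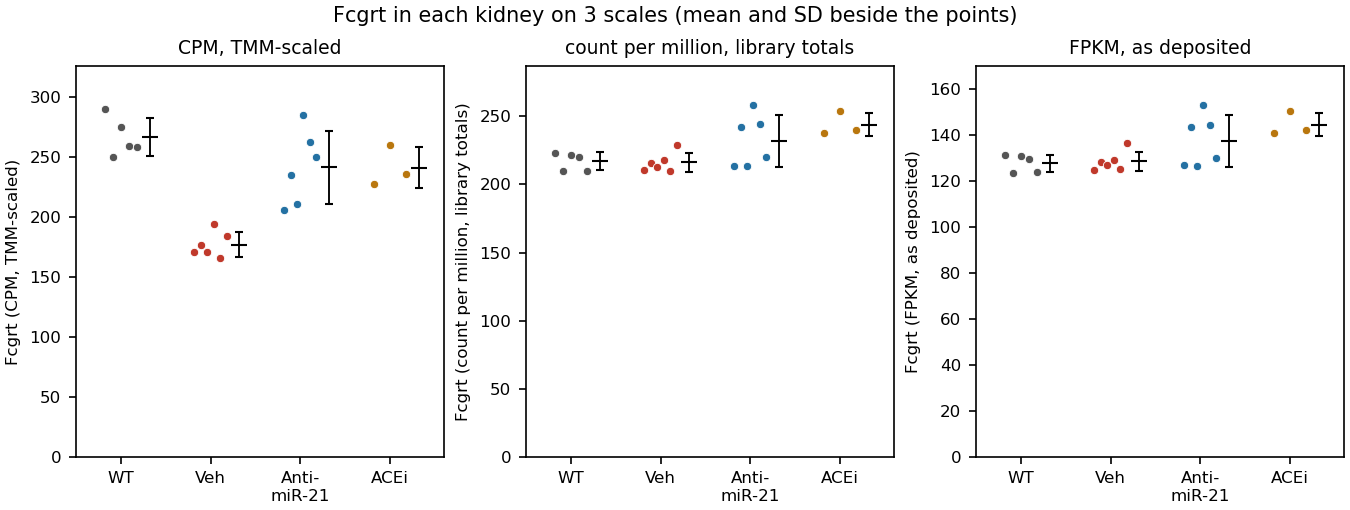
Fcgrt in each kidney as TMM-scaled CPM, as CPM of library totals and as deposited FPKM, on linear axes from 0, with group mean and SD. Veh lies below WT on the TMM scale only, where the Veh median is 174 CPM and the WT values are 250 to 290, and both groups overlap on the other 2 scales.

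The scale mattered for all genes. The median log2 fold change of the 17622 genes between Veh and WT was 0.07 with TMM and 0.65 with library totals, and the share of calls that were higher moved from 53.4% to 81.2%. Between Anti-miR-21 and Veh this share moved from 48.6% to 19.96%, between ACEi and Veh from 52.4% to 20.5%, against WT from 54.6% to 88.6% for Anti-miR-21 and from 52.7% to 85.6% for ACEi. The direction of the 7 members other than Fcgrt against WT and Veh was the same under every scaling. The partner of Fcgrt, B2m, rose from 228 to 270 CPM in WT to 646 to 1593 in Veh (log2 1.82 ± 0.18, adjusted p = 2.02e-08). It was lower than in Veh in Anti-miR-21 (log2 -0.44 ± 0.17, adjusted p = 0.0285), and its value in ACEi was -0.26 ± 0.21 (adjusted p = 0.339).

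How far the members moved with macrophage markers was measured in each kidney. Adgre1, which encodes F4/80, went from 3.31 ± 0.983 CPM in WT (n = 5) to 53.1 ± 6.71 in Veh (n = 6), 27.5 ± 6.66 in Anti-miR-21 (n = 6) and 37.1 ± 10.7 in ACEi (n = 3), and Ptprc, the pan-leukocyte CD45, from 5.98 ± 1.77 to 48.7 ± 8.86, 27.9 ± 6.56 and 36.6 ± 4.29. Relative to Adgre1 the adaptors had overlapping values in all groups, with Tyrobp at a mean ratio of 0.862 in WT, 0.937 in Veh, 0.857 in Anti-miR-21 and 0.753 in ACEi, and Fcer1g at 0.972, 0.932, 0.859 and 0.742. Fcgr4 had overlapping ratios in every group, with means of 0.334, 0.290, 0.274 and 0.219. Fcgr1 stood at 0.263 in WT, 0.509 in Veh, 0.325 in Anti-miR-21 and 0.322 in ACEi, and Fcgr3 at 0.740, 1.24, 0.664 and 0.645. For both genes the Veh ratios overlapped those of WT and Anti-miR-21 and lay above those of ACEi. The ratio of Fcgr2b to Adgre1 was 16.04 in WT, 1.71 in Veh, 2.23 in Anti-miR-21 and 1.85 in ACEi, and that of Syk was 0.918, 0.477, 0.486 and 0.514. The WT mean of Syk was raised by mouse A17 at 2.06, and the WT median was 0.595. The lowest WT ratio of Syk, 0.549, lay below the highest in Veh, 0.555. The picture depended on the marker. Relative to Ptprc, Fcer1g stood at 0.536 in WT, 1.03 in Veh, 0.842 in Anti-miR-21 and 0.716 in ACEi, and Tyrobp at 0.478, 1.04, 0.842 and 0.755. Relative to the sum of the 8 macrophage markers, Fcer1g stood at 0.0184 in WT and at 0.0515, 0.0527 and 0.0512 in the other groups, and Fcgr1 at 0.00488 in WT, 0.0280 in Veh, 0.0201 in Anti-miR-21 and 0.0222 in ACEi. Csf1r, the receptor for macrophage colony-stimulating factor, made up 66.6% of that sum in WT and 23.7% in Veh, and the median change of the 8 markers was 3.88 on the log2 scale. The part of cell number in these results was not tested.

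**Figure D5:**
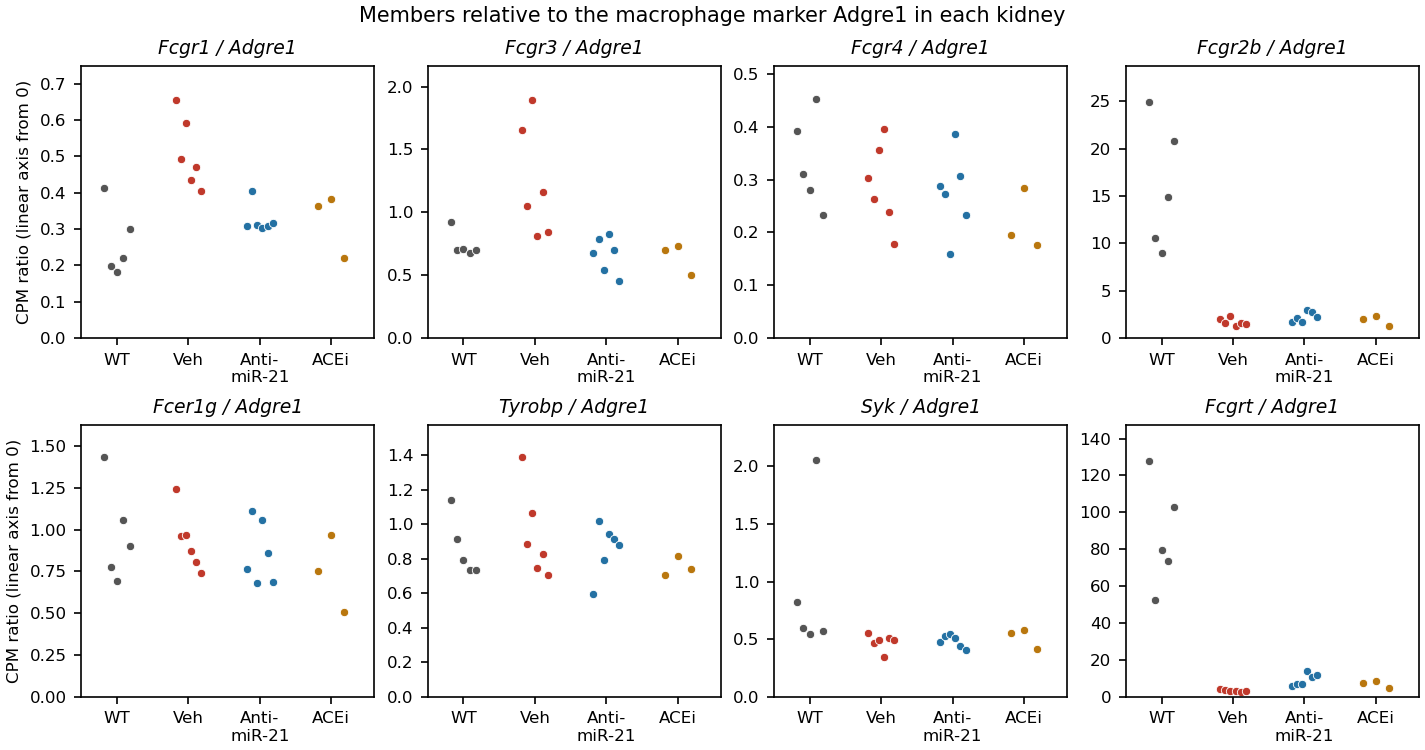
Ratio of each member's CPM to that of the macrophage marker Adgre1 in each kidney, on linear axes from 0. The ratios of Fcer1g, Tyrobp and Fcgr4 overlap between all groups. Fcgr1 and Fcgr3 are highest in Veh on average (means 0.509 and 1.24), where their values overlap those of WT and Anti-miR-21. Fcgr2b and Fcgrt are highest in WT, where Adgre1 itself is low.

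Markers of other cell types were counted as well. In Veh against WT, 8 of 8 macrophage, 4 of 4 leukocyte, 5 of 5 dendritic cell and 5 of 5 T cell markers were higher, as were 1 of 4 natural killer cell, 2 of 3 B cell, 2 of 4 mast cell and 1 of 3 neutrophil markers tested. With library totals these last 4 counts were 4 of 4, 3 of 3, 4 of 4 and 2 of 3. Of all 17622 genes tested, 39.0% were higher and 34.0% lower in Veh, and with library totals 11623 were higher and 2684 lower. Neutrophil markers, whose cells carry Fcgr3 and Fcgr4, summed to 0.338 to 1.83 CPM in WT and 1.14 to 3.10 in Veh, and natural killer cell markers to 0.210 to 1.52 and 0.952 to 4.29. Macrophage markers were lower than in Veh in 8 of 8 genes under each treatment, with medians of -1.07 and -0.95 on the log2 scale. Of the other lists, platelet markers had 1 higher and 1 lower of 3, endothelial markers 2 higher and 1 lower of 5 (4 and 0 with library totals), podocyte markers 4 higher of 5, adipocyte markers 4 higher of 5 and proximal tubule markers 5 lower of 5 in Veh.

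Of the genes around the members, those of immunoglobulins came first. The list holds the heavy chains of IgG, which the receptors bind, together with other classes, the κ chain and the joining chain. Of 10 immunoglobulin constant and joining chain genes 9 were tested, and 8 were higher in Veh than in WT (median log2 2.13). The 1 that was not higher was Ighg3, an IgG heavy chain (log2 -0.54 ± 1.39, adjusted p = 0.736 by edgeR). Against Veh, 8 were lower in Anti-miR-21 (median -1.97) and 1, Ighm, in ACEi (median -0.55). Igha, the IgA heavy chain, went from 35.7 ± 11.3 CPM in WT to 157 ± 66.6 in Veh, 48.9 ± 34.4 in Anti-miR-21 and 121 ± 93.8 in ACEi, with log2 -1.68 ± 0.45 for Anti-miR-21 (adjusted p = 0.00298) and -0.37 ± 0.54 for ACEi (adjusted p = 0.612) against Veh. Ighg2c, an IgG2 heavy chain, changed most, by 3.78 ± 0.87 in Veh (adjusted p = 0.000621), from 0.895 to 36.9 CPM across Veh mice. Ighg2c was lower in Anti-miR-21 (log2 -4.15 ± 0.82, adjusted p = 0.000227). In ACEi, Igha ran from 23.3 to 210 CPM. Between Anti-miR-21 and ACEi, edgeR and DESeq2 each called 0 of the 9 genes, and 5 had an unadjusted p under 0.05 by edgeR. The log2 difference of Igha there was -1.31 ± 0.51 (adjusted p = 0.249 by edgeR).

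Of the receptors that signal through Tyrobp, 9 of 9 tested were higher in Veh (median log2 4.12). Against Veh, 9 were lower in Anti-miR-21 (median -1.10) and 5 in ACEi (median -1.16). Trem2, a lipid receptor of tissue macrophages, was the most abundant, at 0.838 ± 0.165 CPM in WT, 23.7 ± 6.56 in Veh, 11.1 ± 4.72 in Anti-miR-21 and 9.53 ± 2.19 in ACEi. Trem1, which amplifies inflammatory responses, changed most in Veh (log2 5.23 ± 0.73, adjusted p = 1.98e-06) and was lower in Anti-miR-21 (-2.86 ± 0.52, adjusted p = 9.32e-05) and ACEi (-1.87 ± 0.62, adjusted p = 0.0217). Of the receptors that use Fcer1g, 4 of 5 tested were higher in Veh (median log2 4.54). Against Veh, 3 were lower in Anti-miR-21 (median -1.18) and 2 in ACEi (median -1.615). Clec4n (dectin-2), which binds fungal mannans, went from 0.0743 ± 0.0737 CPM in WT to 16.4 ± 6.59 in Veh, 3.06 ± 1.45 in Anti-miR-21 and 4.01 ± 0.9998 in ACEi. Of 3 C-type lectin receptors with a single ITAM-like motif, Clec7a (dectin-1) rose from 1.17 ± 0.612 to 42.0 ± 2.58 CPM (log2 5.15 ± 0.26, adjusted p = 3.02e-12) and Clec9a from 1.88 ± 0.712 to 8.73 ± 3.62 (log2 2.21 ± 0.30, adjusted p = 1.1e-06), and Clec1b was at 0.823 ± 0.0629 and 0.733 ± 0.235 (adjusted p = 0.619). Clec7a was lower in Anti-miR-21 (log2 -1.85 ± 0.19, adjusted p = 1.63e-07) and ACEi (-1.35 ± 0.24, adjusted p = 0.000233). Lower than in Veh were 30.5% of all genes tested in Anti-miR-21 and 19.1% in ACEi. Between the treatments edgeR called 0 of the Tyrobp-coupled and 0 of the Fcer1g-coupled receptors.

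The other ITAM chains, those of T and B cell receptors, and the related adaptor Dap10 (Hcst) were higher in Veh in 7 of 7 genes (median log2 2.96), and lower in Anti-miR-21 in 4. In ACEi edgeR called 0 of them against Veh, with 0 at an unadjusted p under 0.05 and 0 called by DESeq2. Between Anti-miR-21 and ACEi edgeR also called 0 of these 7. Cd3e, of the T cell receptor complex, rose from 0.183 ± 0.131 to 2.54 ± 1.03 CPM (log2 3.75 ± 0.44, adjusted p = 1.93e-07), and Cd79b, of the B cell receptor, from 1.17 ± 0.511 to 3.85 ± 0.541 (log2 1.71 ± 0.24, adjusted p = 1.85e-06). Src and Syk family kinases were higher in 7 of 7 genes (median log2 3.02), lower in Anti-miR-21 in 7 (median -0.88) and in ACEi in 4 (median -0.39). Src, the most abundant of them and broadly expressed, was higher in Veh by 0.40 ± 0.07 on the log2 scale (adjusted p = 6.78e-05). Downstream of Syk, 14 of 16 genes were higher in Veh (median log2 1.05), 13 lower in Anti-miR-21 (median -0.60) and 9 in ACEi (median -0.45). Prkcd, a protein kinase C, changed by 0.33 ± 0.06 in Veh (adjusted p = 3.01e-05), and the adaptor Pik3ap1 by 4.05 ± 0.41 (adjusted p = 2.14e-08). Between the treatments edgeR called 0 of these kinases and 0 of the genes downstream of Syk.

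The inhibitory arm moved in the same direction as the activating one. Receptors with ITIMs were higher in Veh in 11 of 11 genes (median log2 3.94), lower in Anti-miR-21 in 11 (median -0.86) and in ACEi in 8 (median -0.78). Sirpa, the receptor for CD47, was the most abundant, rising from 72.5 ± 17.1 to 211.1 ± 27.5 CPM (log2 1.54 ± 0.14, adjusted p = 6.64e-09), and Cd300lf changed most (log2 5.02 ± 0.47, adjusted p = 7.25e-09). Of the phosphatases and adaptors that ITIMs recruit or that dampen signalling, 7 of 8 were higher in Veh (median log2 1.11). Against Veh, 7 were lower in Anti-miR-21 (median -0.46) and 4 in ACEi (median -0.33). Of these, Dok1 changed most in Veh (log2 2.59 ± 0.14, adjusted p = 7.32e-12), and Ptpn11, the most abundant, was at 82.8 ± 6.53 CPM in WT and 83.6 ± 3.17 in Veh (adjusted p = 0.842). Between the treatments edgeR called 0 of the ITIM receptors and 0 of the phosphatases and adaptors. Over all genes tested the median log2 fold change between Veh and WT was 0.07.

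Of 10 other Fc and immunoglobulin receptors tested, 6 were higher in Veh and 1 lower. Fcrls, an Fc receptor-like gene of macrophages and microglia, changed most (log2 5.87 ± 0.43, adjusted p = 2.44e-10), from 0.381 ± 0.156 to 22.4 ± 6.08 CPM. Pigr, the epithelial receptor that transports polymeric IgA and IgM, was at 136 ± 29.9 CPM in WT and 114 ± 34.6 in Veh (adjusted p = 0.202). It was higher in Anti-miR-21, at 196 ± 32.1 CPM (log2 0.78 ± 0.17, adjusted p = 0.000568), and at 109 ± 12.03 in ACEi (adjusted p = 0.842). The 1 receptor that was lower in Veh was Fcamr, which binds IgA and IgM and was named after its values were seen (log2 -3.16 ± 0.20, adjusted p = 5.01e-11). It was higher in Anti-miR-21 than in Veh by 2.64 ± 0.20 (adjusted p = 2.3e-08) and in ACEi by 1.84 ± 0.23 (adjusted p = 1.45e-05).

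Deviations of log2 CPM from the group means over 20 mice had their highest Pearson correlations between Fcgr1 and Fcer1g (Pearson's r = 0.774, Spearman's rho = 0.704), between Fcgr4 and Fcer1g (r = 0.732, rho = 0.790), between Fcgr3 and Fcer1g (r = 0.726, rho = 0.576) and between Fcgr3 and Tyrobp (r = 0.723, rho = 0.790), and the second and the last of these pairs had the highest rho. Fcgr2b was less tied to Tyrobp (r = 0.168, rho = 0.182), and Fcgrt went against Fcgr1 (r = -0.577, rho = -0.567). All genes of a mouse share its library and scaling factor, and the mice share flow cells, so these values are a description.

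Among 15327 protein-coding genes, the gene most like each member by the same deviations was Sh3pxd2b for Fcgr1 (r = 0.873, rho = 0.755), Ypel1 for Fcgr3 (r = 0.921, rho = 0.920), H2-DMa for Fcgr4 (r = 0.846, rho = 0.809), Ddias for Fcgr2b (r = 0.853, rho = 0.753), Sh2d1b1 for Fcer1g (r = 0.876, rho = 0.835), C3ar1 for Tyrobp (r = 0.869, rho = 0.806), Tm6sf1 for Syk (r = 0.933, rho = 0.850) and Akr1a1 for Fcgrt (r = 0.897, rho = 0.899). The next were Hoxd10 and Casp1 for Fcgr1, Golm1 and Inf2 for Fcgr3, Lck and M1ap for Fcgr4, Cfap126 and Rusc1 for Fcgr2b, Bcl11a and Pola1 for Fcer1g, Mgp and Ctss for Tyrobp, Calhm2 and Ptafr for Syk and Lias and Tgds for Fcgrt, with r between 0.751 and 0.913.

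The libraries came from 2 flow cells, 13 mice from A and 7 from B, and ACEi had 1 mouse in A and Anti-miR-21 1 in B. The difference of mean log2 CPM had the same sign in both flow cells for each of the 8 members between Veh and WT, Anti-miR-21 and Veh, and ACEi and Veh. For Fcgr1 between Veh and WT it was 4.95 in A and 4.87 in B, for Fcgr2b 1.06 and 0.62, and for Syk 3.52 and 2.85. Between Anti-miR-21 and ACEi, Tyrobp differed by -0.70 in A and by 0.01 in B, and Fcgrt by 0.06 in A and by -0.20 in B.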

How the data were processed

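Kidney RNA of 20 mice was analysed. Per the labels and the study's methods, alignment to GRCm38 used the OmicSoft aligner (OmicSoft Studio 9.0). The authors deposited an estimated count (expected count) for each Ensembl gene, not normalized, and 27.9% of the positive values are not whole. They also deposited FPKM, normalized for length and library total, mostly on UCSC genes, of which 3 columns match no labelled mouse and were not used. Counts were rounded, filtered with filterByExpr (minimum count 10, minimum total 15), scaled by TMM and tested with edgeR 4.0.16 in R 4.3.3 (quasi-likelihood test, 1 coefficient per group over 20 mice, Benjamini-Hochberg adjustment over 17622 genes, threshold 0.05). The steps were tested on simulated data. P-values set each group difference against the spread between mice.

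The members and lists were chosen with earlier results of these data known. All members were named. Of each gene list the most abundant gene and the one that changed most in Veh were named, all genes of lists of at most 3, Adgre1 and Ptprc, and the 3 genes most like each member. A result that this rule would name is not reported here. A gene making up a count of 5 or fewer may be named as well. Log2 CPM used a prior count of 2. Alternatives were DESeq2 1.42.0, library totals, upper-quartile scaling, other filters, limma 3.58.1 on log2(FPKM + 1) and log2(FPKM + 0.1), flow cell, flow cell A alone, a fit to the compared groups alone, and leaving out each mouse. FPKM divided by TMM factors, and counts per kilobase for the receptor ratio, were added after the data were seen. Gene positions are from GENCODE, and the plots were drawn with matplotlib 3.10.9. A number was called whole within 1e-06.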

Additional observations from a re-analysis of the deposited data

Results flagged for a closer look

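One value stood apart from the others of its group by Dixon's test at the 95% level. Fcgr2b in WT mouse A14 was at 31.1 CPM, and the other WT mice were between 50.4 and 56.6 CPM, so that the gap took a share of 0.805 of the group's range on the log2 scale. The 8 members were tested in the 3 groups of 4 or more mice, 24 tests in all, of which chance flags about 1 in 20. Without mouse A14 the log2 fold change of Fcgr2b between ACEi and WT was 0.29 (adjusted p = 0.0836 by edgeR), in place of 0.41 (adjusted p = 0.0403).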

How the results depend on the processing

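Of 504 member values recomputed under another setting, 17 changed sign, 5 no longer passed and 5 came to pass. Of 480 recomputed without 1 mouse, 8 changed sign, all of Fcgr4 or Fcgrt between the treatments, 9 no longer passed and 2 came to pass. Fcgrt between Veh and WT was 0.0077 in log2(FPKM + 1) and 0.0078 in log2(FPKM + 0.1), and -0.0058 with library totals. Between Anti-miR-21 and Veh it lost its call, at 0.10 with library totals and 0.09 in both FPKM scales. Against WT it turned to 0.096 (Anti-miR-21) and 0.17 (ACEi) with library totals, 0.10 and 0.18 in log2(FPKM + 1), and 0.10 and 0.18 in log2(FPKM + 0.1). Between Anti-miR-21 and ACEi its value near 0 (0.0015) changed sign to -0.073 with library totals, -0.0024 with upper-quartile scaling, -0.0087 without a filter, -0.012 with at least 10 counts in every mouse, -0.076 in both FPKM scales, -0.0037 with flow cell as a term, -0.0068 with only the groups compared, -0.0057 with FPKM divided by TMM factors and -0.052 without mouse A12. Leaving out 1 mouse, Fcgr4 there ranged from -0.23 to 0.018 (without A10), and Fcgrt from -0.052 to 0.060. Syk between ACEi and Veh passed in log2(FPKM + 1) (-0.59, adjusted p = 0.026, limma) and with only the groups compared (-0.45, adjusted p = 0.0116, edgeR), and Fcgr2b there did not pass with FPKM divided by TMM factors (-0.40, adjusted p = 0.0527, limma). Fcgr2b between Anti-miR-21 and WT passed with library totals (0.53) and in FPKM (0.53 and 0.55), and without A22 (0.34, adjusted p = 0.0472, edgeR), as did Fcgrt without A12 (-0.20, adjusted p = 0.0399, edgeR). The cause of these changes was not tested. The number of members called was 7 or 8 for Veh vs WT, 7 or 8 for Anti-miR-21 vs Veh, 5 to 8 for ACEi vs Veh, 6 or 7 for Anti-miR-21 vs WT, 6 to 8 for ACEi vs WT and 0 between the treatments. Of the pathway lists, with library totals 8 of 8 phosphatases and adaptors were lower in ACEi than in Veh, as were 2 immunoglobulin genes, 1 other ITAM chain and B2m. The same held for 12 of 16 genes downstream of Syk, 10 of 11 ITIM receptors and 3 of 5 Fcer1g-coupled receptors. In Anti-miR-21, 2 single-ITAM lectins and 6 of 7 other ITAM chains were lower with library totals. That scaling moved all genes: of the 17622 tested, 7389 were lower in ACEi than in Veh, in place of 3370 with TMM. In Anti-miR-21 9861 were lower, in place of 5367, so these list counts are not particular to the lists. Counts per kilobase moved the mean ratio of activating receptors to Fcgr2b to 0.179 in WT, 2.15 in Veh, 1.07 in Anti-miR-21 and 1.20 in ACEi. No test within flow cell A was run for comparisons with ACEi, which has 1 mouse there. No paired analysis was possible because each mouse has a name of its own and the groups share no replicate numbers.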
